A study of Homo sapiens with 2 samples.

Results

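J-domain proteins are the co-chaperones that bring HSP70 to its clients. The 39 genes of the DNAJA, DNAJB and DNAJC classes described here were picked by their symbols from the 60683 genes of the count table, and all 39 matched a single Ensembl gene ID. They comprise 4 class A, 9 class B and 26 class C genes. Total RNA of HEK293T, an established line of embryonic kidney origin with the SV40 large T antigen, was sequenced as strand-marked libraries after stable knockdown of FKBP5 by shRNA (short hairpin RNA). The product of FKBP5 is an immunophilin and a co-chaperone of HSP90. Both samples, sample 1 and sample 2, belong to this single group. Control cells were not analysed here, so the values are levels in knockdown cells and differences between 2 libraries, and none is an effect of the knockdown. How many hairpins or clones lie behind the stable cells, and whether the samples are separate cultures, the labels do not say, and their spread may be technical.

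In the HSP70 cycle, a J-domain protein delivers a client and stimulates ATP hydrolysis by HSP70, which closes on the client, and a nucleotide exchange factor then opens it again. The stimulation depends on a histidine-proline-aspartate tripeptide, HPD, in a loop of the J-domain. Class A proteins resemble bacterial DnaJ, with a glycine- and phenylalanine-rich stretch and a zinc finger. Class B proteins keep the glycine- and phenylalanine-rich stretch and lack the zinc finger, and class C holds every other protein with a J-domain, so that its members are diverse in size and place.

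Sample 1 held 9997706 counts and sample 2 held 21284648, so that 3 counts, the limit used for a count of 0, stand for 0.289 and 0.137 CPM, the unit of counts scaled to a common library size. FKBP5 itself stood at 3.95 and 3.52 CPM, and the extent of its knockdown cannot be read from these values. All 11 markers of HEK293T cells reached 1 CPM in both samples, with summed levels of 831 and 803 CPM. Of 6 blood markers 1 did so (4.92 and 8.79 CPM summed), and of 6 fibroblast markers 2 did so (56.96 and 68.1 CPM summed).

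The tripeptide that defines the family could be read from the coding sequences of the members. In GENCODE 29 (GRCh38), 1 coding sequence per gene was searched in frame, on the coding strand, for the letters CACCCNGAC, CACCCNGAT, CATCCNGAC and CATCCNGAT, which are the ways to encode HPD. Each of the 39 members held exactly 1 such run. Of 19475 coding sequences of protein-coding genes, 5.31% held exactly 1 and 1090 held at least 1. The sequences below are shown because they carry the family's signature and because they let the closest relatives be told apart. Each is 57 bases of coding sequence, 5′ to 3′, with the HPD codons in capitals. The first group is class A, followed by the most abundant class B genes and by class C genes that return below.
DNAJA1: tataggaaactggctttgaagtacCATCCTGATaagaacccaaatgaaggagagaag
DNAJA4: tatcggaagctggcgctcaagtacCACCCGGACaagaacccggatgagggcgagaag
DNAJA2: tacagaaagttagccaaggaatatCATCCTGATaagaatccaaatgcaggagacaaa
DNAJA3: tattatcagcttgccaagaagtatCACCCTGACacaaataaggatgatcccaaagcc
DNAJB1: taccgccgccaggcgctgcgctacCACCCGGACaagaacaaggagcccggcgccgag
DNAJB6: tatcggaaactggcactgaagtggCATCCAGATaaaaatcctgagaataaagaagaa
DNAJC8: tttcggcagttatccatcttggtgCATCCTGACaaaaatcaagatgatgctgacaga
DNAJC5: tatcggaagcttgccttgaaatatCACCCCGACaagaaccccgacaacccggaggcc
DNAJC19: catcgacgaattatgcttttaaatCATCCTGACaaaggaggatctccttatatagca
DNAJC15: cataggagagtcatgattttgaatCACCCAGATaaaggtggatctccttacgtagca

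Within these windows DNAJA1 (chr9:33026560-33026616, plus strand) and DNAJA4 (chr15:78264839-78264895, plus strand) shared 45 of 57 bases, the highest value between any members, reached also by DNAJB14 with DNAJC18 and by DNAJB6 with DNAJC21. DNAJC19 and DNAJC15 shared 44 bases, and DNAJA1 and DNAJA2 (chr16:46971896-46971952, minus strand) 42. No 2 members were therefore identical over the window. The windows of DNAJA3 (chr16:4434509-4437449, plus strand), DNAJC5 (chr20:63928448-63929363, plus strand), DNAJC8 (chr1:28210590-28214948, minus strand), DNAJC15 (chr13:43085802-43107197, plus strand) and DNAJC19 (chr3:180984691-180985962, minus strand) cross an intron, so their spans on GRCh38 are longer than the window. Those of DNAJB1 (chr19:14518224-14518280, minus strand) and DNAJB6 (chr7:157363162-157363218, plus strand) lie in a single exon.

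The place of the HPD codons followed the classes only in part. They lay within the first 60 codons in 2 of 4 class A genes, 6 of 9 class B genes and 8 of 26 class C genes. In class A they ranged from codon 34 in DNAJA1 to codon 121 in DNAJA3, and in class B from codon 31 in DNAJB2 and DNAJB6 to codon 146 in DNAJB5. In class C they ranged from codon 31 in DNAJC21 to codon 1332 of 2243 in DNAJC13, the endosomal protein RME-8. They came near the end in DNAJC6, the clathrin-uncoating protein auxilin (codon 877 of 913), in DNAJC27 (245 of 273) and in DNAJC22 (305 of 341). All these positions and counts hold for the 1 coding sequence searched per gene. Many members have more, such as DNAJB5 with 8 coding transcripts and DNAJA4 with 5, and the position may differ between them.

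**Figure D1:**
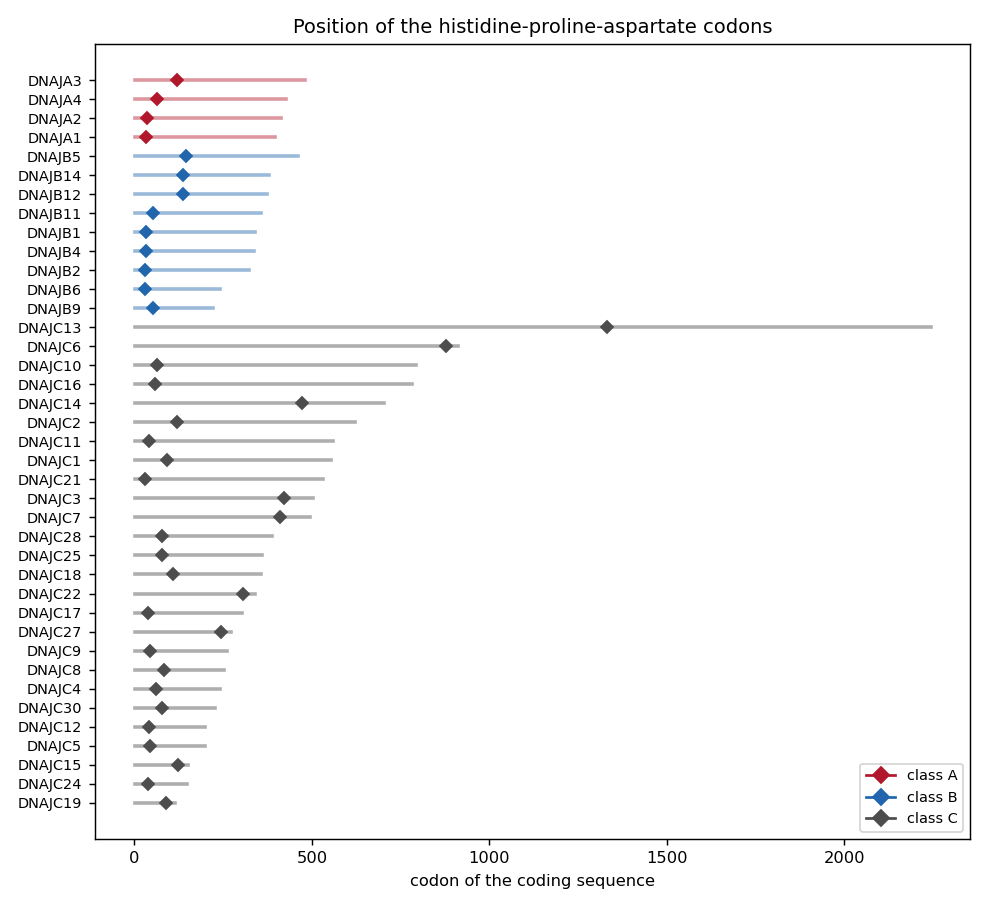
Position of the HPD codons (diamonds) along the coding sequence (lines, in codons) of the 39 members, coloured by class. In classes A and B the diamonds lie between codons 31 and 146, and in class C they reach codon 1332 in DNAJC13.

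All 39 members were expressed. Each had at least 1 CPM in both samples, and the lowest count of any member was 11. Of all genes in the table, pseudogenes and non-coding genes included, 24.8% had at least 1 CPM in both samples. The members were chosen with earlier results of these data known, so their share is no independent result. Of 10 J-domain genes outside the 39 members, 5 had at least 1 CPM in both samples. A level of at least 10 CPM was reached by 31 members and of at least 100 CPM by 6: DNAJB6, DNAJC8, DNAJA3, DNAJC5, DNAJA1 and DNAJB1. As a share of all counts the members made up 0.228% of sample 1, with 95% Wilson bounds of 0.225 and 0.231%. In sample 2 they made up 0.215%, with bounds of 0.213 and 0.217%. These intervals, like the Poisson intervals below, cover counting error only.

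Levels are compared between genes as CPM per kilobase of exon, where the length is the union of the exons of a gene. Long rarely used exons lower this value, so the level over the longest protein-coding transcript is given beside it where it matters. Class A had the highest median, 20.6 ± 0.924 CPM per kb, where the SD is taken over the sample medians. Class C had 4.90 ± 0.340 and class B 4.50 ± 0.599 CPM per kb. Over coding transcripts the medians were 44.4 in class A, 10.8 in class B and 7.79 in class C, so the order of classes B and C turned around with the choice of length. Each class spanned a wide range, from 0.192 to 56.3 CPM per kb in A, 1.18 to 35.7 in B and 0.297 to 64.9 in C.

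**Figure D2:**
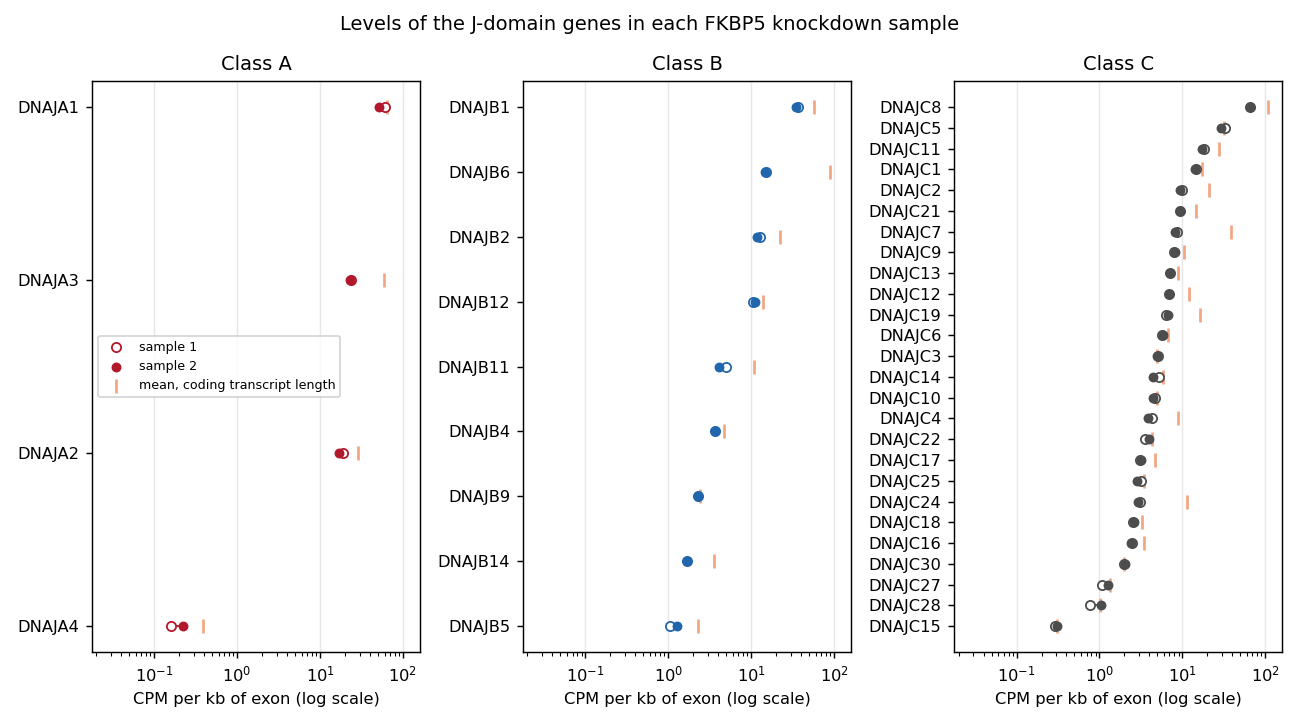
Level of each member in CPM per kb of exon (log axis) in sample 1 (open circles) and sample 2 (filled circles), by class, with the mean over the longest coding transcript as a tick. DNAJC8, DNAJA1 and DNAJB1 lead, DNAJA4 and DNAJC15 are lowest, and the samples lie close together beside the range of the genes.

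Among the cytosolic class A genes, DNAJA1 was by far the highest and DNAJA4 by far the lowest, though detected in both samples. DNAJA1 (ENSG00000086061, chr9:33025211-33039907, plus strand), a general partner of HSC70, had 1745 counts in sample 1 and 3041 in sample 2, or 61.6 and 51.0 CPM per kb. DNAJA2 (ENSG00000069345), which also assists HSC70 in refolding, had 988 and 1885 counts, or 18.8 and 17.0 CPM per kb. DNAJA4 (ENSG00000140403), the close relative of DNAJA1 shown above, had 11 and 32 counts, or 0.161 and 0.222 CPM per kb. DNAJA1 thus stood 383 times above DNAJA4 in sample 1 and 229 times in sample 2, and 216 and 130 times over coding transcripts. The 11 counts of DNAJA4 in sample 1 leave its level there between 0.529 and 1.90 CPM (95% exact Poisson interval), so these ratios are known only roughly.

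The cytosolic class B genes ranged from 35.7 CPM per kb of exon in DNAJB1 to 1.18 in DNAJB5. DNAJB1 (ENSG00000132002, chr19:14514770-14529770, minus strand), the stress-inducible HSP40, had 1402 and 2782 counts, or 36.8 and 34.7 CPM per kb. DNAJB6 (ENSG00000105993, chr7:157335381-157417439, plus strand), a suppressor of protein aggregation, had the most counts of any member, 2369 and 4871. Its level was 15.2 and 14.9 CPM per kb of exon, and 89.3 on average over the coding transcript, which moved it from rank 8 to rank 2 of 39. DNAJB2, which binds ubiquitin and is known best in neurons, had 776 and 1500 counts, or 12.7 and 11.7 CPM per kb. DNAJB4 and DNAJB5, relatives of DNAJB1, had 3.70 ± 0.005 and 1.18 ± 0.160 CPM per kb. DNAJB1 exceeded DNAJB4 9.96-fold in sample 1 and 9.37-fold in sample 2, and DNAJB5 34.6-fold and 26.9-fold.

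In the lumen of the endoplasmic reticulum (ER), the J-domain genes ranked between 20 and 32 of 39 per kb. DNAJC3, also known as P58IPK, had 5.02 ± 0.172 CPM per kb. DNAJC10, a reductase that helps to remove misfolded proteins, had 4.57 ± 0.163 CPM per kb, and DNAJB11, a cofactor of the HSP70 protein BiP, 4.50 ± 0.599. DNAJB9, a target of the unfolded protein response, was lowest with 2.30 ± 0.0140 CPM per kb. The range of DNAJB11 over the samples overlapped those of DNAJC3 and DNAJC10, while DNAJB9 lay below the others. Not scaled to length, DNAJC10 had 99.7 CPM, rank 7 of the members, over 21.8 kb of exon.

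The ER membrane genes ranged more widely. DNAJC1, which binds ribosomes at the ER, had 384 and 772 counts, or 14.8 and 14.1 CPM per kb. DNAJB12 and DNAJB14 are relatives that take part in the disposal of membrane proteins. DNAJB12 had 624 and 1363 counts, or 10.6 and 11.04 CPM per kb. DNAJB14 had 226 and 479 counts, or 1.67 and 1.68 CPM per kb. DNAJB12 thus exceeded DNAJB14 by a ratio of 6.39 in sample 1 and 6.59 in sample 2, or 3.85 and 3.96 over coding transcripts. DNAJC18, related to both, had 2.57 ± 0.0948 CPM per kb and DNAJC16 2.42 ± 0.0381. DNAJC14, a membrane protein of the ER, had 4.78 ± 0.563 CPM per kb. On its strand 23.2% of its exon bases are shared with another annotated gene, AC023055.1, which had 0 and 2 counts, and reads lost to that overlap were not tested.

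Of the mitochondrial genes, DNAJA3 (ENSG00000103423, chr16:4425805-4456775, plus strand), the class A protein of the matrix, was highest with 1742 and 3539 counts, or 23.7 and 22.9 CPM per kb. DNAJC11, associated with the machinery that shapes the cristae, had 969 and 1932 counts, or 18.4 and 17.4 CPM per kb. DNAJC19 and DNAJC15 encode alternative J-proteins of the motor that pulls proteins through the inner membrane, and their HPD windows are shown above. DNAJC19 had 239 and 522 counts, or 6.42 and 6.66 CPM per kb. DNAJC15 had 24 and 54 counts, or 0.288 and 0.307 CPM per kb. The motor gene DNAJC19 was thus 22.3 and 21.7 times above DNAJC15, and 53.8 and 52.2 times over coding transcripts. DNAJC30, known for its role at the respiratory chain, had 2.002 ± 0.0336 CPM per kb.

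Among genes of vesicles and endosomes, DNAJC5 (ENSG00000101152, chr20:63895182-63936031, plus strand), the cysteine string protein of secretory vesicles, had 1793 and 3418 counts, or 32.7 and 29.6 CPM per kb. Of its relatives, DNAJC5G had 19 and 46 counts and DNAJC5B 3 and 2. DNAJC13 had 7.003 and 7.14 CPM per kb. DNAJC6, best known from neurons, had 5.65 and 5.90 CPM per kb. GAK, its widely expressed relative, exceeded it 1.76-fold in sample 1 and 1.77-fold in sample 2, or 5.11-fold and 5.13-fold over coding transcripts.

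Nuclear and translation-linked members included the highest of the family. DNAJC8 (ENSG00000126698, chr1:28199456-28233025, minus strand), a protein of the spliceosome, had 1939 and 4111 counts, or 64.7 and 65.1 CPM per kb, and led by both lengths. DNAJC9, a histone chaperone, had 8.09 ± 0.107 CPM per kb and DNAJC17, linked to splicing, 3.14 ± 0.109. DNAJC2, which sits at the ribosome, had 9.76 ± 0.403 CPM per kb. DNAJC21, a factor of large ribosomal subunit maturation, had 9.37 ± 0.0582 and DNAJC24, an enzyme cofactor of diphthamide synthesis, 2.97 ± 0.122. DNAJC7, which bridges HSP70 and HSP90 through its tetratricopeptide repeats, had 8.32 ± 0.354 CPM per kb of exon and 38.5 over the coding transcript, rank 14 and rank 6. DNAJC24 moved furthest with the choice of length, from rank 29 to rank 17.

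The remaining class C genes lay between 0.904 and 6.85 CPM per kb. DNAJC12, a chaperone of aromatic amino acid hydroxylases, was highest with 151 and 317 counts, and DNAJC28 lowest with 20 and 56 counts, or 0.776 and 1.03 CPM per kb. DNAJC4, DNAJC22, DNAJC25 and DNAJC27 lay between them, at 4.09, 3.71, 3.01 and 1.18 CPM per kb. In the order of all members, 11 of 38 neighbouring pairs had ranges over the samples that overlapped, most of them between ranks 20 and 29.

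Pseudogene copies of the members held few counts. Of 32 loci named as pseudogenes of members, 31 had a mean under 1 CPM and 13 no count at all, and the exception was DNAJB6P1 with 12 and 50 counts beside the 2369 and 4871 of DNAJB6. In 34 of 39 members at least 95% of 50-base stretches occurred in no other gene's transcript. The lowest shares were 77.0% in DNAJC14, 87.6% in DNAJC9 and 88.4% in DNAJC25, so these levels are less certain. Exons of 9 members overlap another gene on the same strand. The largest overlap after those of DNAJC14 and DNAJC25 was that of DNAJC4, which shares 10.6% of its exon bases with NUDT22. NUDT22 had 206 and 454 counts and DNAJC4 125 and 238, so the level of DNAJC4 is also less certain. The readthrough gene DNAJC25-GNG10 had no count in either sample, a limit of 0.289 and 0.137 CPM for reads assigned to it. It shares exon bases with DNAJC25, and how reads in shared exons were counted is not stated. Its absence of counts therefore sets no limit on its true level. Genes on the opposite strand overlap the exons of 15 members, up to 34.9% of bases in DNAJC14, and whether counting used the strand is not stated in the labels.

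Between the samples the median member was nearly level. The summed share of the members was lower in sample 2, at 0.215% of all counts against 0.228% in sample 1. The Wilson bounds of these shares, which cover counting error only, did not overlap. The counts of each gene were compared by a 2-sided exact binomial test, adjusted after Benjamini-Hochberg over the 15530 genes whose mean reached 1 CPM. This sets library against library and speaks of no condition. The test separated 2 of 39 members (5.13%), both lower in sample 2, where 8.97% of all genes tested were called in either direction and 4.56% as lower. Of the 6 members with at least 100 CPM 2 were lower and 0 higher, and of the 2282 genes at that level 16.4% were lower and 10.1% higher, 26.5% in all. The median log2 ratio of CPM + 1, sample 2 over sample 1, was -0.01 over the members and 0.01 over all genes tested, with 22 members lower and 17 higher. The SD of this ratio was 0.13 over the members, 0.21 over all genes tested and 0.11 over the genes with at least 100 CPM. The SD of the members was not compared with that of genes of like level.

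DNAJA1 differed most clearly. Its level was 168 CPM in sample 1, with 95% exact Poisson bounds of 160.4 and 176, against 139 CPM in sample 2, with bounds of 134 and 144. This is a log2 ratio of -0.27, with an adjusted p = 6.22e-08 by the binomial test. DNAJC5 had 173 and 156 CPM, a log2 ratio of -0.14 (adjusted p = 0.0127). For these 2 members the Poisson intervals of the samples did not overlap. Counting error is the sole error in this test. A negative binomial exact test was also run, with a common biological coefficient of variation of 5.62% that edgeR estimated from both samples. It called no member (1 at an unadjusted p under 0.05), and DNAJA1 had an adjusted p = 0.768. The estimate takes the differences between these same libraries as spread, so the test could call few genes, and it called 13 of 15530. It therefore cannot decide whether the members differ.

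The other members did not pass the binomial test. DNAJB11 had 28.2 and 23.4 CPM (log2 ratio -0.26, adjusted p = 0.0925) and DNAJA2 95.2 and 86.3 CPM (-0.14, adjusted p = 0.0984). DNAJB1 had 135 and 127 CPM (adjusted p = 0.277), and DNAJA3 168 and 162 CPM (adjusted p = 0.520). DNAJB6 and DNAJC8, the members with the most counts, had 95% intervals of the log2 ratio of CPM from -0.11 to 0.04 and from -0.07 to 0.09. For DNAJA4 the interval ran from -0.56 to 1.60 and for DNAJC28 from -0.35 to 1.23. At this depth a level 1.5-fold higher in sample 2 is therefore not excluded for these genes.

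**Figure D3:**
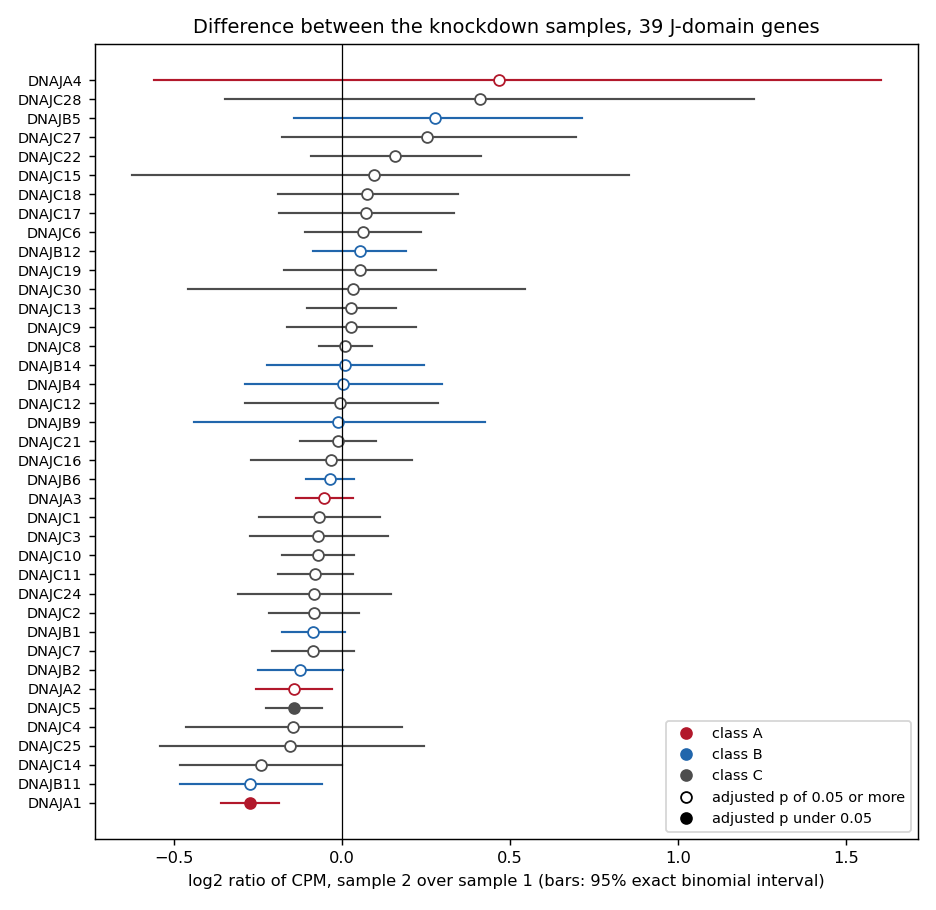
Log2 ratio of CPM, sample 2 over sample 1, for the 39 members (points, coloured by class) with 95% exact binomial intervals (bars) that cover counting error only. Filled points, DNAJA1 and DNAJC5, passed the binomial test, and the widest interval is that of DNAJA4.

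Partner genes of the HSP70 cycle were examined from lists. Of 16 HSP70 family genes 5 were lower in sample 2 by the binomial test and 1 was higher, beside 4.56% and 4.41% of all genes. All 6 had at least 100 CPM, a level at which 16.4% of genes were lower and 10.1% higher. HSPA8, the constitutive HSC70, stood at 910.3 CPM in the first sample and 732 in the second (adjusted p = 4.93e-59), and HSPA5, which encodes BiP, 903 and 768 CPM (adjusted p = 1.73e-32). HSPA9, the mitochondrial member, had 491 and 433 CPM (adjusted p = 2.86e-10). The stress-inducible HSPA1A had 619 and 660.5 CPM (adjusted p = 0.000629) and was the gene that was higher. HSPA1A and HSPA1B are near-identical copies, so reads may be divided between them. The HSP70-like genes HSPH1 (175 and 159 CPM) and HYOU1 (199.8 and 184 CPM) were also lower.

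Of 10 nucleotide exchange factors 3 were lower and 0 higher, where 4.56% of all genes tested were lower and 4.41% higher. These were the mitochondrial factors GRPEL1 (47.2 and 38.8 CPM) and GRPEL2 (38.6 and 30.9 CPM) and the cytosolic HSPBP1 (157 and 143 CPM). Among genes with at least 100 CPM, as HSPBP1 had, 16.4% were lower. BAG6 (254 and 249 CPM) and BAG3 (86.7 and 86.9 CPM) did not pass. Of 7 further adaptors, chaperones and regulators HSPB1 alone passed, at 123 and 137 CPM and thus higher in sample 2. So were 4.41% of all genes tested and 10.1% of those with at least 100 CPM. The most abundant of the list, STIP1 (318 and 313 CPM), ST13 (309 and 312 CPM) and HSF1 (162 and 172 CPM), did not pass. Of 10 J-domain genes outside the 39 members, 5 reached a mean of 1 CPM, and none of these passed the binomial test or had an unadjusted p under 0.05. GAK (151 and 158 CPM) and SEC63 (101.97 and 98.0 CPM) led them. By the negative binomial test none of the partner genes in these lists was called, with a lowest adjusted p of 0.578. That test takes the differences between the same libraries as spread, so it cannot decide whether these genes differ.

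Set beside the HSP70 genes of the same place, the J-domain genes gave summed levels that differed between compartments. In the cytosol, HSPA8, HSPA1A and HSPA1B summed to 636 CPM per kb in sample 1 and 621 in sample 2, and the 8 class A and B genes to 150.1 and 134. The ratio of HSP70 to J-domain genes was 4.24 and 4.62, or 2.90 and 2.95 over coding transcripts. In the ER lumen HSPA5 alone had 231 and 197 CPM per kb against 17.1 and 15.7 for the 4 lumenal J-domain genes, a ratio of 13.5 and 12.5, or 9.47 and 8.99 over coding transcripts. In mitochondria HSPA9 had 59.5 and 52.5 CPM per kb against 30.5 and 29.9 for DNAJA3, DNAJC19 and DNAJC15, a ratio of 1.95 and 1.76, or 1.35 and 1.22 over coding transcripts. For the J-domain genes chosen for each place, the order of the compartments was the same in both samples and by both lengths. The ER sum took lumenal genes only. It left out the ER membrane gene DNAJC1, at 14.8 CPM per kb in sample 1 and 14.1 in sample 2. SEC63, at 11.9 and 11.4 CPM per kb, was in none of the sums. Both values of each gene are large beside the lumenal sum, and whether the order holds with them included was not tested. The ratios given are of RNA and not of protein.

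**Figure D4:**
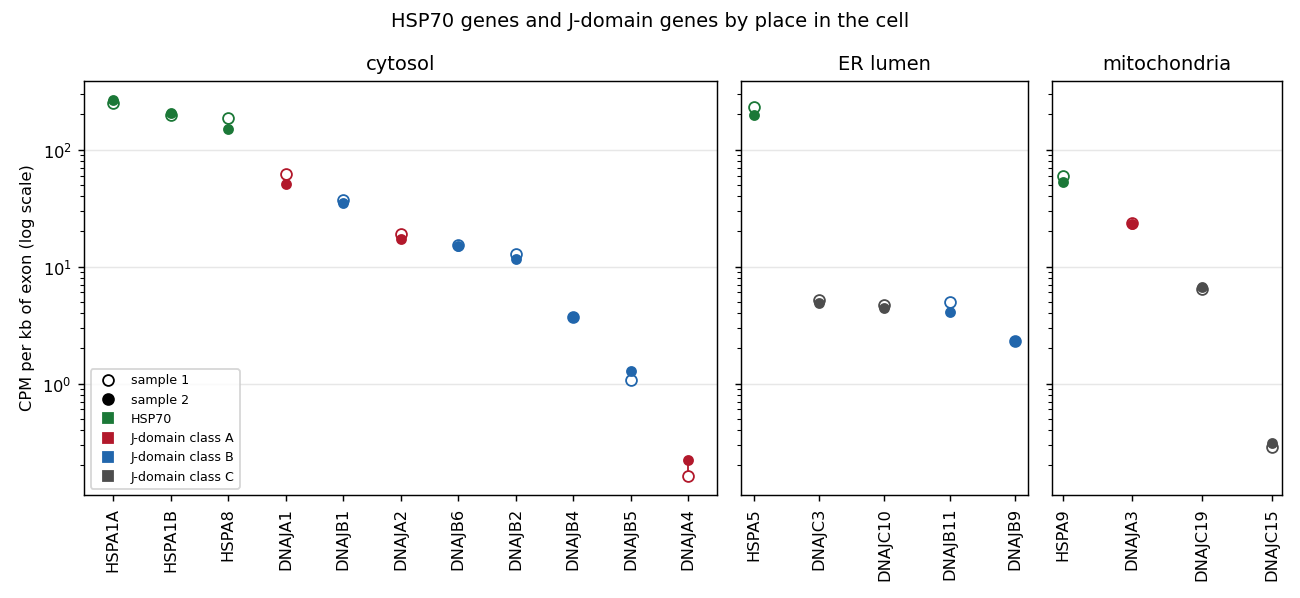
Level in CPM per kb of exon (log axis) of HSP70 genes (green) and J-domain genes (coloured by class) in the cytosol, the ER lumen and mitochondria, in sample 1 (open) and sample 2 (filled). HSPA5 stands far above the J-domain genes of the ER lumen, at 231 and 197 CPM per kb, while HSPA9, at 59.5 and 52.5, lies nearer to DNAJA3, at 23.7 and 22.9.

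Promoters were searched for 3 motifs on both strands, in RefSeq windows (GRCh38.p14) of equal length that span the start of each gene, which were matched by symbol for 36 of 39 members. The heat shock element, 3 alternating GAA and TTC units with 2 bases between them, was found in DNAJA1 and DNAJB6 and in 0.490% of all 35093 promoters. Of the partner genes, HSPA6 and HSPA8 held it. The ER stress element, CCAAT and CCACG with 9 bases between them, was found in no member, in HSPA5 and in 0.0769% of promoters. The CRE-like motif TGACGTCA was found in DNAJC27 and in 1.85% of promoters. Members and partners were counted as genes with a match in any of their promoters, while the percentages are of single promoters. The 2 kinds of count are therefore not directly comparable. Exact letters were searched, so a gene without a match may still hold a variant of a motif, or one outside the window. Between the libraries the log2 ratio of CPM + 1 was -0.27 in DNAJA1, -0.03 in DNAJB6, -0.31 in HSPA8 and -0.10 in HSPA6. A difference between these ratios was not tested.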

How the data were processed

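RNA-seq counts and CPM were analysed for 2 HEK293T samples of 1 group, FKBP5 knockdown, numbered by their titles. The authors deposited 1 table of counts, with a whole number for each Ensembl gene. With the counting program, strand setting and annotation not given in the sources used here, STAR 2.7.7a, edgeR and the build GRCh38 are what the submitters' processing notes list. The CPM deposited by the authors equalled the counts multiplied by a fixed factor in each library (100% whole reads at a tolerance of 1e-06), with library sizes 3.78% and 2.68% above the column totals. Lengths, coordinates and overlaps came from GENCODE 29, and symbols from a table that named 99.5% of the IDs.

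The 39 members and the lists of roles, partners and motifs were chosen with earlier results of these data known. The rule for named genes gave full values for the 4 highest and 2 lowest members of each class per kb, members past the test or under 10 counts, and in each partner list the 3 most abundant genes and at most 6 with those past the test. Paralog pairs, compartments and the HPD codon search were added after the values were seen. Protein features were not analysed here. The values of 1 partner gene are not reported here. The binomial test (scipy 1.17.1, Python 3.11.15) used the library sizes behind the CPM, log2 ratios a pseudocount of 1 CPM, and intervals a level of 95%. It was tested on simulated data. Alternatives used edgeR 4.0.16 and DESeq2 1.42.0 in R 4.3.3. No row was left out of the totals.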

Additional observations from a re-analysis of the deposited data

How the results depend on the processing

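DNAJA1 and DNAJC5 were the 2 members past the binomial test with library sizes from the column totals, from TMM and from DESeq2 size factors, without a filter on low genes, with a minimum of 5 CPM, and with the doubled smaller tail as the p-value, which was chosen after seeing the data. The adjusted p of DNAJC5 ranged from 0.00416 to 0.0336 over these. With a negative binomial test at the common dispersion, 0 members passed, where 13 of 15530 genes did so. That dispersion was estimated from the same libraries and takes their differences as spread. The median log2 ratio of the members was -0.03 with column totals and -0.03 with a minimum of 5 CPM, and lay between -0.03 and -0.01 over all alternatives run.

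Over the longest protein-coding transcript the class medians were 44.4 CPM per kb in class A, 10.8 in class B and 7.79 in class C, and the levels of 19 of 39 members rose by over 1.5-fold, up to 5.93-fold in DNAJB6. Of the 10 highest members 9 were shared by both lengths. Leaving out each sample in turn gave medians of 19.97 to 21.3 in class A, 4.08 to 4.93 in class B and 4.67 to 5.16 in class C, and left 39 members at 1 CPM. At a minimum of 5 CPM 35 members remained. No test between libraries can be made with a sample left out. No paired analysis was possible because there is a single group. Depth limits members with few counts, such as DNAJA4, DNAJC28 and DNAJC15.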
